A study of Mus musculus with 8 samples.

Results

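The annexins are calcium-dependent proteins that bind acidic phospholipids at the inner or outer face of membranes. They bridge membranes, assist the resealing of damaged plasma membrane, support exocytosis and endocytosis and, once outside the cell, act in coagulation, plasmin formation and the resolution of inflammation. Annexin A1 is a mediator of glucocorticoid action that signals through the formyl peptide receptors, and annexin A2 has been described in adipose tissue as a partner of CD36 in fatty acid uptake. The family was examined here in bulk RNA-seq of mouse brown adipose tissue (BAT), the thermogenic fat depot, in 4 WT and 4 Cd36KO libraries. The 9 genes Anxa1, Anxa2, Anxa3, Anxa4, Anxa5, Anxa6, Anxa7, Anxa8 and Anxa11 were taken by symbol from the 31053 genes of the count table, which lists 11 annexin genes. They were chosen from the readout itself, because Anxa1 was lower in Cd36KO at low counts. The values of Anxa1 are therefore a description with no test, and the question put to the data was whether the other 8 members followed.

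All 8 libraries came from mice of strain C57BL6/J labelled as 8 weeks old, with the genotype WT or Cd36KO. The labels name no treatment. CD36 is a scavenger receptor for lipids and vesicles. The study attributes its BAT transcriptome to mice in which a floxed Cd36 was removed by Cre driven from Csf1r, a gene of the macrophage lineage, so that other CD36-bearing cells of the tissue keep the gene. The labels do not state whether the controls carried the Cre or the floxed allele. The methods give an older age at sacrifice for such mice and male animals throughout, whereas Xist had 772 to 1588 counts in every library and the 4 Y-linked genes looked at had 3 counts over all libraries. The labels also name the stromal vascular fraction as cell type, yet Ucp1, the defining gene of brown adipocytes, stood at 4235 to 12313 normalized counts in every library. One Cd36KO count column has no replicate number and is called the unnumbered Cd36KO library.

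Total counts ranged from 2679785 to 4097953 per library. Cd36 itself had 2918 ± 454 normalized counts in WT against 2087 ± 216 in Cd36KO (SD, n = 4 libraries each), without overlap between the groups and without passing the test (DESeq2 adjusted p = 0.0602, edgeR adjusted p = 0.191). It passed with TMM factors in DESeq2 (adjusted p = 0.0494), and in the fits that left out 1 library the DESeq2 adjusted p ran from 0.00656 without WT replicate 4 to 0.290 without WT replicate 3. Of 9619 genes with an adjusted p in DESeq2, 284 were called at a threshold of 0.05, which is 2.95%, with 137 higher and 147 lower in Cd36KO. This split moved when 1 library was left out, from 20 higher and 93 lower without the unnumbered Cd36KO library to 328 higher and 179 lower without WT replicate 4. edgeR called 14 of 9793 genes, or 0.143%. Skeletal muscle markers varied most between libraries, with a summed level of 533 to 46193 normalized counts in WT against 40.9 to 6380 in Cd36KO, and the WT replicate 1 library stood highest. Normalized counts are counts divided by the size factor of the library.

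The sequences upstream of 2 members are shown because they let the member that was lower in Cd36KO be set beside an abundant member that was not called. The letters TATAAA were searched on both strands in the 250 bases before each RefSeq start (GRCm38.p6). RefSeq promoters were at hand for 7 members, 9 promoters in all, and the letters were found in Anxa1 and Anxa2, against 12.4% of 32851 promoters of the same length. Each window of 30 bases is written 5′ to 3′ on the strand of the gene, with the match in capitals.
Anxa1: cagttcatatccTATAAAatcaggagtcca
Anxa2: ggatggggcgggTATAAAagccccacccag
The Anxa1 window lies at chr19:20390686-20390715 on the minus strand, and its match begins 32 bases before the RefSeq start. The Anxa2 window lies at chr9:69453654-69453683 on the plus strand, with the match beginning 17 bases before the start. Both windows fall inside the bounds that GENCODE gives to these genes. A match of letters is a description and not a binding site, and nothing about the factor that reads such a motif is drawn from it.

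Anxa1 (ENSMUSG00000024659, chromosome 19, 20373428 to 20390944, minus strand, GRCm38, 15 exon blocks) encodes annexin A1, the glucocorticoid-inducible member. It had 14, 19, 8 and 17 raw counts in WT replicates 1 to 4, and 4 in the unnumbered Cd36KO library, with 1, 5 and 7 in Cd36KO replicates 2 to 4. After normalization these were 12.6, 16.1, 9.41 and 16.8 in WT against 4.46, 1.15, 5.11 and 5.34 in Cd36KO. Every Cd36KO library lay below every WT library, and the lowest WT library, replicate 3, stood nearest to the Cd36KO libraries. Of 11180 genes averaging 5 or more normalized counts, 3.80% had all Cd36KO libraries below all WT libraries, and nothing is read from Anxa1 being among them because that contrast chose it. Group means were 13.8 ± 3.42 and 4.02 ± 1.95 normalized counts (SD, n = 4 libraries each), and the fitted log2 fold change was −1.75 with an SE of 0.62.

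Counting error was wide for this gene. Pooled over a group, Anxa1 had 58 of 12635441 counts in WT, or 4.59 CPM (the counts-per-million scale) with a 95% Poisson interval of 3.49 to 5.93, and 17 of 12912912 counts in Cd36KO, or 1.32 CPM with an interval of 0.767 to 2.11. The intervals of single libraries overlapped in part between the groups. The lowest WT library, replicate 3, had 2.95 CPM (1.27 to 5.81), and the highest Cd36KO library, replicate 4, had 1.71 CPM (0.687 to 3.52). These intervals cover counting error only. DESeq2's filter on low means gave the gene no adjusted p, and its fitted value ranged from −1.94 to −1.47 over 12 alternative settings, the weakest being the fit without Cd36KO replicate 2, the library with 1 count.

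**Figure D1:**
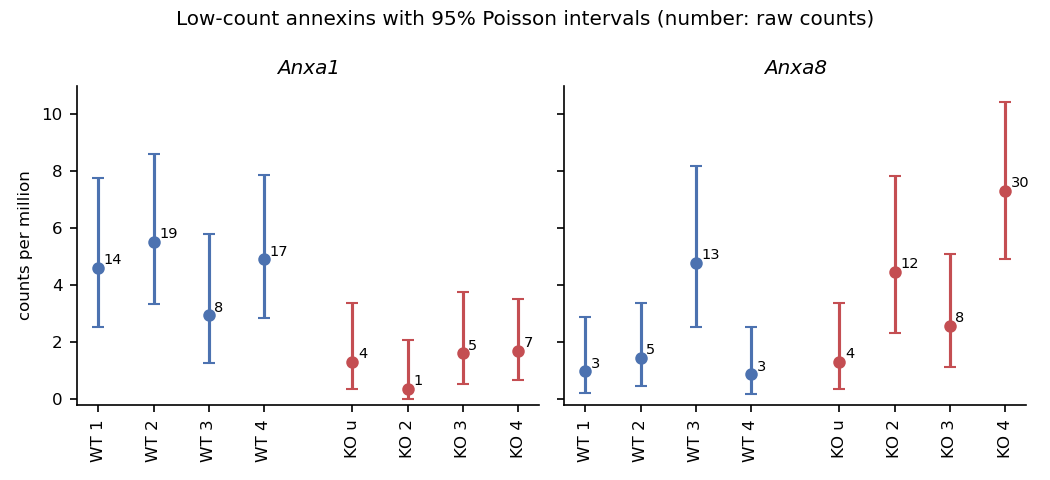
Abundance in CPM (vertical axis) of Anxa1 and Anxa8 in each library (horizontal axis, KO u being the unnumbered Cd36KO library), with 95% Poisson intervals as bars and the raw count beside each point; blue is WT and red is Cd36KO. Anxa1 spans 8 to 19 counts in WT and 1 to 7 in Cd36KO, while Anxa8 reaches 30 counts in Cd36KO replicate 4 and 13 in WT replicate 3.

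None of the other 8 members was called, and Anxa1 itself was not tested. Of these 8, 6 received an adjusted p and 0 were called by DESeq2, where 2.95% of all genes were called. A count of 0 among 6 is near that share and is not read as a result about the family. edgeR also called 0 of the 6 it tested. None of the 8 in DESeq2 and none of the 6 in edgeR had an unadjusted p under 0.05. The median fitted log2 fold change of the 8 was 0.04, beside −0.01 over all genes tested. Among the 6 with an adjusted p, 4 had a fitted value above 0 and 2 below. A p that misses the threshold does not show equal levels, so the interval of each difference is given with its gene.

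**Figure D2:**
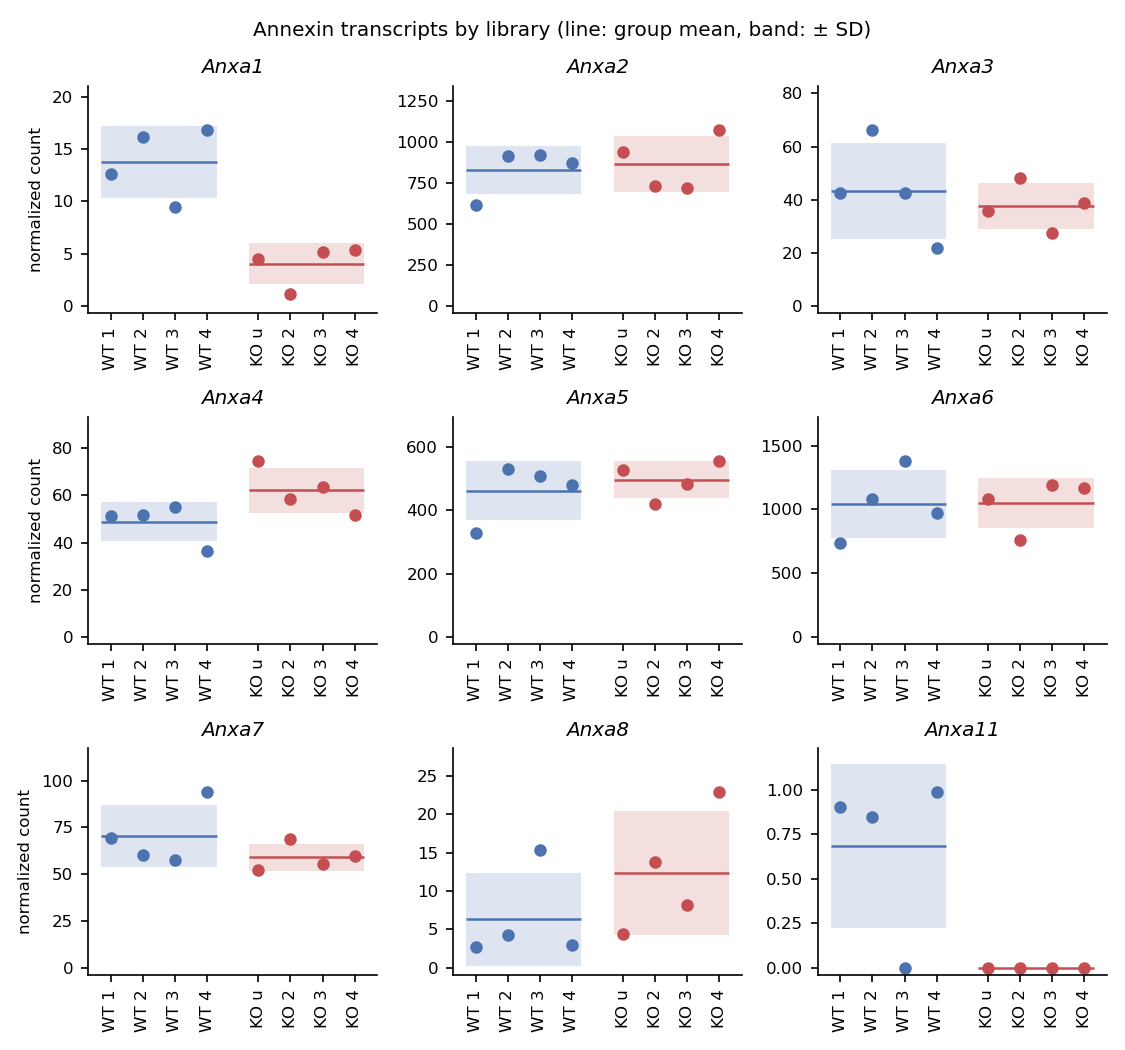
Normalized counts (vertical axes, each from 0) of the 9 members in the 4 WT (blue) and 4 Cd36KO (red) libraries, KO u being the unnumbered one; lines are group means and bands ± SD. The groups are separate for Anxa1 and overlap for the other 8 members, and WT replicate 1 is the lowest WT library for Anxa2, Anxa5 and Anxa6.

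The family in this tissue was held by 3 members. Anxa2, Anxa5 and Anxa6 together made up 92.5% ± 1.55 of the normalized counts of the 9 members in WT and 93.1% ± 1.45 in Cd36KO (SD, n = 4 libraries each). Divided by the length of the exons in kb, mean levels over the 8 libraries were 357 normalized counts per kb for Anxa6, 270 for Anxa5 and 227 for Anxa2. This order held in all 8 libraries, and each of the 3 stood above every other annexin in all 8. Without division by length, Anxa2 stood above Anxa5 in all 8 libraries. The methods name a digital mRNA-seq service and do not state whether reads came from along the transcript or from its 3′ end. In the latter case division by length would understate long transcripts, and only the order without division would apply.

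A second tier followed at 11.9 normalized counts per kb for Anxa4, 11.1 for Anxa3 and 10.8 for Anxa7. Anxa4 was above Anxa3 in 5 of 8 libraries and Anxa3 above Anxa7 in 6. Without division by length, Anxa4 was above Anxa3 in 7 of 8 libraries and Anxa3 above Anxa7 in 1, so the order of these 3 turned with the scale. Anxa8 at 4.96 and Anxa1 at 3.05 normalized counts per kb were lower still, with Anxa8 the higher in 5 of 8 libraries. The order of their means turned between the groups, with Anxa1 at 4.72 and Anxa8 at 3.35 normalized counts per kb in WT against 1.38 and 6.56 in Cd36KO. Anxa11 was near the floor at 0.0829. Of the annexins outside the 9, Anxa9 averaged 2.22 normalized counts per kb and Anxa10 had no count in any library. The share of Anxa1 among the normalized counts of the 9 members was 0.57% ± 0.17 in WT and 0.15% ± 0.07 in Cd36KO.

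Anxa2 (chromosome 9, 69453620 to 69491795, plus strand) encodes annexin A2, which pairs with S100A10 at the cell surface and brings plasminogen and its activator together. It had 615, 911, 919 and 869 normalized counts in WT replicates 1 to 4, and 938, 731, 717 and 1072 in the unnumbered Cd36KO library and replicates 2 to 4. The groups overlapped over most of their range. The fitted log2 fold change was 0.06 with an SE of 0.19 and a 95% interval of −0.32 to 0.44 (DESeq2 adjusted p = 0.928).

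Anxa5 (chromosome 3, 36448923 to 36475894, minus strand) encodes annexin A5, whose binding to exposed phosphatidylserine is used to detect dying cells. It had 328, 533, 509 and 482 normalized counts in WT against 527, 421, 484 and 557 in Cd36KO, in the same library order. WT replicate 1 was lowest of all 8 and the rest intermixed. The log2 fold change was 0.10 with an interval of −0.26 to 0.47 (DESeq2 adjusted p = 0.856).

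Anxa6 (chromosome 11, 54979108 to 55033445, minus strand) encodes annexin A6, a larger member with a duplicated core that acts in endocytosis and cholesterol transport. It had 738, 1078, 1380 and 974 normalized counts in WT against 1082, 762, 1193 and 1164 in Cd36KO. The spread within WT exceeded the difference of the means, 1042 ± 266 against 1050.0 ± 198 (SD, n = 4 libraries each). The log2 fold change was 0.01 with an interval of −0.41 to 0.43 (DESeq2 adjusted p = 0.986), so a fold below 0.753 or above 1.35 lay outside its 95% interval.

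WT replicate 1, the lowest WT library for all 3 of these genes, was also the library with the most skeletal muscle transcript, 46193 summed normalized counts over 8 markers. Without it the fitted log2 fold changes were −0.06 for Anxa2, −0.03 for Anxa5 and −0.12 for Anxa6, all below 0, and again 0 of the 8 other members were called. The median of the 8 was then −0.09. The part of muscle transcripts in these levels was not tested. In bulk tissue, fewer cells of a type and less RNA per cell cannot be told apart.

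Anxa4 (chromosome 6, 86736840 to 86793584, minus strand) encodes annexin A4, a member abundant in epithelia that forms arrays on membranes. Its normalized counts were 51.5, 51.8, 55.3 and 36.6 in WT and 74.6, 58.7, 63.4 and 51.9 in Cd36KO. The Cd36KO libraries lay mostly above, with replicate 4 inside the WT range. The log2 fold change was 0.35 with an SE of 0.26 and an interval of −0.17 to 0.86, and neither tool called it (DESeq2 adjusted p = 0.568, edgeR adjusted p = 0.488). The exact two-sided permutation p was 0.0571 over the 70 arrangements of 4 against 4, whose smallest p is 0.0286.

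Anxa3 (chromosome 5, 96793339 to 96845966, plus strand) encodes annexin A3, a member rich in neutrophils. Its normalized counts were 42.4, 66.3, 42.3 and 21.8 in WT and 35.7, 48.3, 27.6 and 38.9 in Cd36KO. All 4 Cd36KO libraries lay inside the WT range. The log2 fold change was −0.21 with an interval of −0.91 to 0.50 (DESeq2 adjusted p = 0.849), and it was 0.09 without WT replicate 2.

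Anxa7 (chromosome 14, 20455260 to 20480133, minus strand) encodes annexin A7, or synexin, which aggregates secretory granules and binds sorcin. Its normalized counts were 69.5, 60.3, 57.6 and 94.0 in WT and 52.4, 69.0, 55.2 and 59.5 in Cd36KO. WT replicate 4 was highest and the other libraries intermixed. The log2 fold change was −0.25 with an interval of −0.76 to 0.25 (DESeq2 adjusted p = 0.704).

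Anxa8 (chromosome 14, 34085981 to 34100571, plus strand) encodes annexin A8, a member best known from stratified epithelia. It had 3, 5, 13 and 3 raw counts in WT and 4, 12, 8 and 30 in Cd36KO. The high libraries were Cd36KO replicate 4 and WT replicate 3, and the groups overlapped. Pooled, this was 24 counts or 1.90 CPM in WT (95% Poisson interval 1.22 to 2.83) and 54 counts or 4.18 CPM in Cd36KO (3.14 to 5.46). These intervals cover counting error only and leave out the spread between libraries. The log2 fold change was 1.02 with an SE of 0.72 and an interval of −0.40 to 2.44. Leaving out 1 library moved it from 0.52 without Cd36KO replicate 4, which held 30 of the 54 counts, to 1.92 without WT replicate 3, which held 13 of the 24. It had no adjusted p because of its low mean, and in the alternatives that gave one the DESeq2 adjusted p was at least 0.277.

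Anxa11 (chromosome 14, 25842156 to 25886804, plus strand) encodes annexin A11, which tethers RNA granules to lysosomes. It had 1 count in each of WT replicates 1, 2 and 4 and 0 in WT replicate 3 and in all 4 Cd36KO libraries. By the floor of 3 counts set for a count of 0, the 0 of 12912912 counts in Cd36KO allow up to 0.232 CPM, with an upper bound of 0.286 CPM by the 95% Poisson interval used above, and the 3 counts in WT stood at 0.237 CPM, so no fold is given. Of the 75-base words of its transcripts, 14.9% also occurred in Anxa11os, Gm2260 or Gm2274, against at most 1.12% for the other members, so the count of Anxa11 is uncertain where reads could not be assigned to 1 gene.

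**Figure D3:**
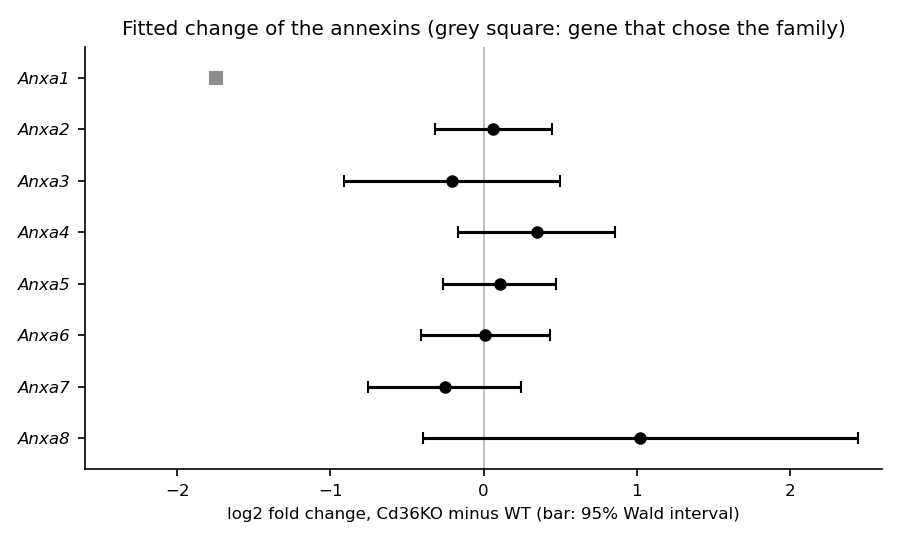
Fitted log2 fold change of Cd36KO against WT (horizontal axis) of 8 members, with 95% Wald intervals as bars; Anxa1, the gene that chose the family, is a grey square with no bar, and Anxa11 is left out for its 3 counts. The intervals of Anxa2 to Anxa8 all include 0, from the narrow ones of Anxa5 (−0.26 to 0.47) and Anxa2 to the wide one of Anxa8 (−0.40 to 2.44).

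The difference between Anxa1 and another member was not tested, since Anxa1 was chosen for its value. Among Anxa2 to Anxa8, the intervals of Anxa8 and Anxa3 were the widest.

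Genes that act with the annexins were then read from 8 lists, 57 genes in all, of which 56 were in the table and 37 had an adjusted p. DESeq2 called 1 of them higher (S100a1) and 4 lower (Dusp1, Klf9, Ahnak and Gas6) in Cd36KO, and the median log2 fold change of the 37 was −0.33, beside −0.01 for all genes tested. Over all genes with an adjusted p, 2.95% were called. edgeR called 0 of the 37. At an unadjusted p under 0.05 stood 14 of the 37 in DESeq2, where all genes gave 1498 of 9619, or 15.6%, and 15 of the 37 in edgeR, where all genes gave 1580 of 9793, or 16.1%. Without WT replicate 1 the DESeq2 count was 7, with 1 higher and 6 lower. It was 0 without WT replicate 2, where 13 had an unadjusted p under 0.05, 3 without WT replicate 3, 1 without the unnumbered Cd36KO library and 3 without Cd36KO replicate 3.

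Receptors of annexin A1 were close to undetected. Fpr1, a formyl peptide receptor of neutrophils and macrophages, had 3 counts in WT replicate 1 and none elsewhere, and Fpr2 and Fpr3 had none in any library, which by the floor of 3 counts allows up to 0.237 CPM over the WT and 0.232 over the Cd36KO libraries. Of 7 neutrophil markers, Ly6g was at 0, and the summed level was 4.95 to 29.8 normalized counts in WT against 9.91 to 25.6 in Cd36KO. The summed level of 8 macrophage markers was 395 to 728 in WT and 476 to 702 in Cd36KO, with 0 of the 6 tested called. Both lists overlapped between groups, and their part in the level of Anxa1 was not tested.

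Genes induced through the glucocorticoid receptor, the pathway upstream of Anxa1, were listed together with the receptor gene. All 10 had fitted values below 0, where 4890 of 9619 genes did in all, with a median log2 fold change of −0.57 beside −0.01 for all genes tested. An unadjusted p under 0.05 was found for 5 of the 10 in DESeq2 and 5 in edgeR, beside 15.6% and 16.1% of all genes. Of the 10, 2 were called lower, where 147 of 9619 genes were called lower in all. Dusp1, a phosphatase that turns off MAP kinases, had 66.8, 56.1, 25.9 and 76.2 normalized counts in WT against 21.2, 24.2, 12.3 and 25.2 in Cd36KO. WT replicate 3 stood close to the Cd36KO libraries, without overlap. Dusp1 fell by 1.44 on the log2 scale with an SE of 0.39 (DESeq2 adjusted p = 0.0157, edgeR adjusted p = 0.11). This call was lost without WT replicate 2, the unnumbered Cd36KO library or Cd36KO replicate 3, with a DESeq2 adjusted p of up to 0.108, and the fit without WT replicate 4 gave the gene no adjusted p.

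Klf9, a hormone-responsive transcription factor, was even within WT, at 1387, 1328, 1317 and 1308 normalized counts, against 878, 1047, 1088 and 905 in Cd36KO. It fell by 0.45 on the log2 scale with an SE of 0.13 (DESeq2 adjusted p = 0.0304, edgeR adjusted p = 0.185). The call held only without WT replicate 4 or Cd36KO replicate 3 among the fits that left out 1 library, and the adjusted p reached 0.192. With all 8 libraries it was lost without independent filtering (DESeq2 adjusted p = 0.0537). The most abundant members not called were Nfkbia, the inhibitor of NF-kB, at 771 ± 124 and 591 ± 29.3 normalized counts, and Zbtb16, a transcription factor, at 467 ± 223 and 276 ± 155 (SD, n = 4 libraries each). Nr3c1, the glucocorticoid receptor itself, had 220 ± 15.4 in WT and 173 ± 11.8 in Cd36KO with no overlap and was not called (DESeq2 adjusted p = 0.262).

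S100 proteins are small calcium sensors that bind the tails of annexins. Of 10 in the table, 8 had an adjusted p and 1 was called. S100a1 had 1487, 2457, 2610 and 2111 normalized counts in WT against 3920, 2664, 3781 and 4027 in Cd36KO. The lowest Cd36KO library, replicate 2, was just above the highest WT library. It rose by a log2 fold change of 0.73 with an SE of 0.20 (DESeq2 adjusted p = 0.0231, edgeR adjusted p = 0.138). The call was lost without WT replicate 2, the unnumbered library, or Cd36KO replicate 3 or 4, with an adjusted p of up to 0.124. The summed level of 8 brown adipocyte markers was also higher in Cd36KO, at 16193 to 21653 normalized counts in WT against 28795 to 36663 in Cd36KO. Of these markers 3 were called higher, where 137 of 9619 genes were called higher in all. Within WT, replicate 3 had the highest S100a1 and the lowest sum, while within Cd36KO replicate 2 was lowest in both. The part of these markers in the level of S100a1 was not tested.

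The S100 genes best known as annexin partners were not called with all 8 libraries. S100a10, which encodes the partner of annexin A2, had 225 ± 41.8 normalized counts in WT against 176 ± 26.5 in Cd36KO, with a log2 fold change of −0.35 (DESeq2 adjusted p = 0.397). S100a11, which encodes the partner of annexin A1, had 1144 ± 331 and 816 ± 87.3, with −0.49 (DESeq2 adjusted p = 0.223), and was called lower without WT replicate 1 (DESeq2 adjusted p = 0.00562). S100a13, a secretion cofactor, had 881 ± 62.4 and 1022 ± 188, with 0.21. S100a6, which binds annexin A11 among others, had 397 ± 65.1 and 320 ± 51.0.

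In plasminogen activation, the process that annexin A2 assists, the 2 most abundant listed genes were not called. Plgrkt, a plasminogen receptor, had 50.1 ± 8.18 normalized counts in WT against 44.2 ± 6.31 in Cd36KO (SD, n = 4 libraries each), and Serpine2, a protease inhibitor, had 130 ± 30.1 and 143 ± 38.4. Plg and Serpinb2 had no counts.

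Among partners in membrane repair, 7 of 9 had an adjusted p and 1 was called. Ahnak, a giant scaffold that annexin A2 with S100A10 recruits to the membrane, had 988, 1224, 1384 and 979 normalized counts in WT against 545, 710.0, 733 and 842 in Cd36KO. All Cd36KO libraries lay below the WT libraries. It fell by 0.69 on the log2 scale with an SE of 0.18 (DESeq2 adjusted p = 0.0151, edgeR adjusted p = 0.126), and the call was lost without WT replicate 2 or 3 or the unnumbered Cd36KO library, with an adjusted p of up to 0.127. Cav1, the caveolar coat protein, had 560 ± 47.2 and 436 ± 52.5, and Ehd2, which stabilizes caveolae, had 628 ± 171 and 414 ± 74.7. Neither was called with all 8 libraries, while Ehd2 was called lower without WT replicate 1 (DESeq2 adjusted p = 0.00761). Dysf and Myof, the ferlins of membrane resealing, had log2 fold changes of −0.02 and −0.33 and were not called.

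Among the bridges and receptors that share the phosphatidylserine ligand of annexin A5, 5 of 9 had an adjusted p and 1 was called. Gas6, the bridge to the TAM receptors, had 83.0, 77.3, 61.2 and 86.1 normalized counts in WT against 3.34, 33.4, 28.6 and 31.3 in Cd36KO. The unnumbered Cd36KO library was far below the other 3, and all 4 were below WT. Gas6 fell by 1.66 on the log2 scale with an SE of 0.42 (DESeq2 adjusted p = 0.00868, edgeR adjusted p = 0.11). The call held without the unnumbered library and was lost without WT replicate 2 (adjusted p = 0.0714). Pros1, the second TAM ligand, had 48.4 ± 7.52 and 24.3 ± 6.32 and missed the threshold (DESeq2 adjusted p = 0.062), but was called lower when only genes with 10 counts in at least 4 libraries were fitted. Mertk, a TAM receptor of macrophages, had 150 ± 67.8 and 90.6 ± 6.24, and Mfge8, a bridge to integrins, had 1034 ± 341 and 1189 ± 169, neither called with all 8 libraries. In the fits that left out 1 library, the DESeq2 adjusted p of Mertk ran from 0.0455 without WT replicate 1 and 0.049 without WT replicate 4 to 0.605 without WT replicate 3, where its log2 fold change was −0.38 in place of −0.72.

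The last list held penta-EF-hand genes, among them those whose products bind annexins A7 and A11, together with Tsg101 and Pdcd6ip of the ESCRT pathway. Of its 6 genes, 5 had an adjusted p and 0 were called in DESeq2, none of them at an unadjusted p under 0.05. edgeR called 0, with 1 gene, Pdcd6ip, at an unadjusted p under 0.05. Sri, which encodes the sorcin bound by annexin A7, had 166 ± 29.6 and 165 ± 18.6 normalized counts. Pdcd6ip, or ALIX, had 98.9 to 153 in WT and 82.4 to 117 in Cd36KO.

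**Figure D4:**
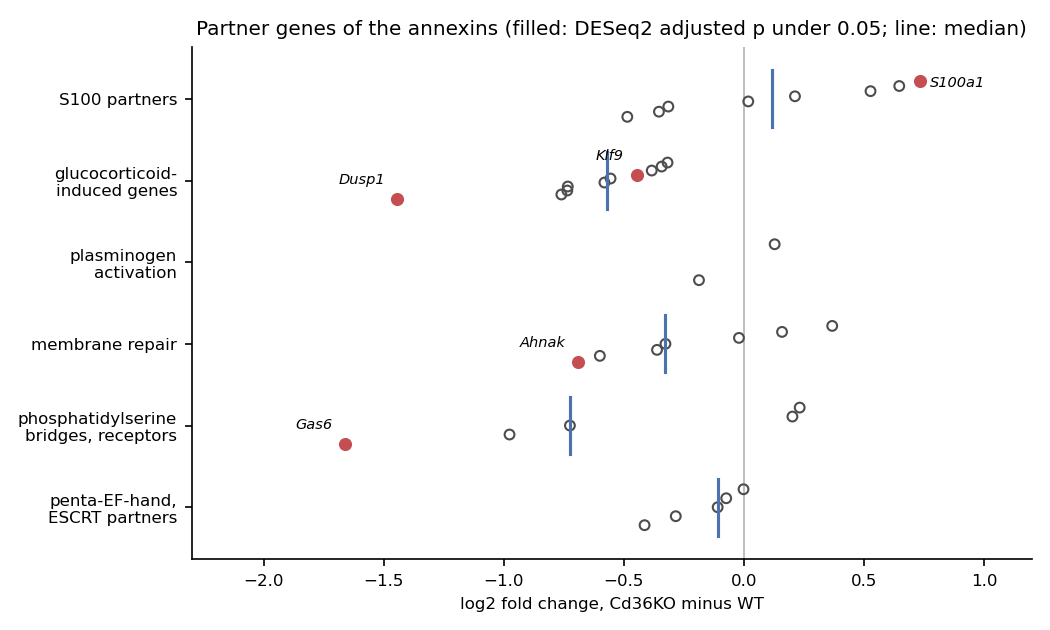
Log2 fold change of Cd36KO against WT (horizontal axis) of the 37 partner genes with an adjusted p, by list; filled points have a DESeq2 adjusted p under 0.05 and blue lines are medians of lists with more than 2 genes. The 10 genes of the glucocorticoid list, the receptor gene Nr3c1 among them, all lie below 0 with a median of −0.57, whereas S100 partners lie on both sides with a median of 0.12.

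Marker levels of other cell types are given beside these partner genes. White adipocyte markers, 7 in the list, had a summed level of 608 to 4848 normalized counts in WT and 535 to 962 in Cd36KO. Replicate 1 was the lowest in WT, and the groups overlapped. Of 5 tested, 4 were called lower, where 147 of 9619 genes were called lower in all. Stromal progenitor markers, 8 in the list, stood at 1367 to 1553 in WT and 1073 to 1289 in Cd36KO, without overlap. Of 7 tested, 1 was called lower. The part of these markers in the levels of the annexins and their partners was not tested.

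The genes whose profile was most like that of Anxa1 were sought among 5528 genes averaging 50 or more normalized counts, by the root mean square difference of centred log2 values over the 8 libraries. The nearest were Tacc2 (0.55), Tln2 (0.56), Eepd1 (0.57), Atp5g1 (0.57) and Aldh1a1 (0.58). Since Anxa1 was chosen for its split between genotypes, these values are a description. Tacc2 had 105 to 235 normalized counts in WT against 38.0 to 68.0 in Cd36KO. The other members of the family lay farther from Anxa1, from 0.91 for Anxa7 to 1.71 for Anxa8, with the exception of Anxa11, at 0.67 with its 3 counts.

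Aldh1a1, which encodes a retinaldehyde dehydrogenase, is also a neighbour of Anxa1 on chromosome 19, where it lies from 20492715 to 20643465 on the plus strand, 102 kb away. It was singled out after its values were seen. Its normalized counts were 75.8, 97.7, 56.5 and 107 in WT and 34.5, 20.7, 12.3 and 28.2 in Cd36KO, with a log2 fold change of −1.81 and an SE of 0.34. The groups did not overlap. Within 1 Mb of Anxa1 the table holds 7 genes with Anxa1 itself, 4 of them with any count. Besides Aldh1a1, called by both tools (DESeq2 adjusted p = 8.09e-05, edgeR adjusted p = 0.0394), Aldh1a7 and Zfand5 had log2 fold changes of −0.23 and −0.08 and were not called. The lincRNA 1500015L24Rik, which overlaps Anxa1 on the opposite strand without shared exon bases, had no count.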

How the data were processed

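Counts per gene were measured in 8 BAT libraries. The deposited values are whole-number counts per Ensembl gene, not normalized. Per the study's methods, the authors used bbduk to clean the reads, STAR to align them to mm10 and HTSeq-count to count them, whereas the submitters' processing notes name Trimmomatic and HISAT2. Annotation release, strandedness and molecular identifiers are not given in the sources used here, so overlapping genes are less certain. Groups came from the sample labels.

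Cd36KO was compared with WT using DESeq2 1.42.0 (Wald test, genotype only, Benjamini-Hochberg adjustment over all genes with an adjusted p, threshold 0.05) in R 4.3.3. edgeR 4.0.16 (quasi-likelihood, TMM) was the first alternative. Others were TMM factors in DESeq2, 10 counts in at least 4 libraries, no independent filtering, the replicate block and leaving out each library. The 6 libraries of the block without the block were added after the data were seen. Exact two-sided permutation tests used SciPy 1.17.1, and figures matplotlib 3.10.9. Total counts were 2679785 to 4097953, and p-values measure the spread between these libraries. Symbols and coordinates (1-based, GRCm38) came from GENCODE M21, and promoters from RefSeq. The functions were tested on simulated counts. Named genes are the annexins, Cd36, partner genes called or among the 2 most abundant of their list, and the 5 nearest to Anxa1. Aldh1a1 as a neighbour, Nr3c1, Pros1, S100a6, S100a10, Dysf and Myof were named after their values were seen. One listed partner gene is not reported here and stands in no count of the lists. The members and lists were chosen with earlier results of these data known.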

Additional observations from a re-analysis of the deposited data

Results flagged for a closer look

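In 58 groups of 4 libraries (29 genes), 4 held a library farther from the others than Dixon's 95% limit allows. For normally spread values chance gives about 1 in 20, or 2.9, a rate that need not hold for groups at low counts. Anxa2 had 615 normalized counts in WT replicate 1, against 869 to 919 in WT replicates 2 to 4. Anxa8 had 15.3 in WT replicate 3, above 2.71 to 4.25 in the others. Fpr1 had 2.71 in WT replicate 1 and 0 in the others, a group that any count in a single library would have flagged. Gas6 had 3.34 in the unnumbered Cd36KO library, below 28.6 to 33.4 in the other Cd36KO libraries.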

How the results depend on the processing

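Over 96 alternative fits of single members other than Anxa1, whose direction its choice fixed, 80 kept the direction of the fitted log2 fold change and 16 turned it, and no other member was called in any of the 14 alternatives. The turns were in Anxa2, Anxa3, Anxa5 and Anxa6. Anxa6 was −0.00091 with edgeR. With the replicate block, Anxa2, Anxa5 and Anxa6 were −0.12, −0.064 and −0.15, and in the same 6 libraries without the block −0.094, −0.055 and −0.13. Leaving out 1 library gave −0.057 to 0.15 for Anxa2, −0.43 to 0.086 for Anxa3, −0.030 to 0.18 for Anxa5, −0.12 to 0.18 for Anxa6 and −0.078 to 0.12 for Sri. The median of the 8 other members was −0.10 with the replicate block, −0.11 in the same 6 libraries without it, and −0.090 to 0.14 when 1 library was left out. The number of genes called was 284, against 14 with edgeR and 171 without independent filtering, and 69 (without WT replicate 2) to 507 (without WT replicate 4) when 1 library was left out. Partner genes called were 5, against 0 with edgeR, where 15 had an unadjusted p under 0.05, 0 without WT replicate 2 and up to 7 without WT replicate 1 in DESeq2, and 6, with Pros1 added, at 10 counts in 4 libraries. Replicate numbers 2, 3 and 4 are shared by both groups, and deviations of same-numbered libraries correlated at −0.13, 0.42 and 0.14 over 5528 genes, and 3 of the 6 numbered libraries correlated best with their own number. The libraries were therefore not taken as paired, and a factor shared by the replicate 3 libraries was not tested. With the block 219 genes were called, 32 higher and 187 lower, and in the same 6 libraries without it 262, 48 higher and 214 lower. The block fit left 0 of the 5 partner genes called (DESeq2 adjusted p from 0.0803 for Ahnak and 0.0977 for Gas6 to 0.617 for Klf9) and called 3 others, S100a11, Ehd2 and, named after its values were seen, S100b. In the same 6 libraries without the block, 4 were called, Ahnak, Gas6, S100a11 and Ehd2. Depth limits Anxa1, Anxa8 and Anxa11, whose libraries held between 0 and 30 counts.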
